A study of Ciona robusta with 8 samples.

Results

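The most abundant stable transcripts of the cardiopharyngeal progenitors of Ciona robusta, a sea squirt, were described in 8 libraries of bulk RNA sequencing. A gene model was a member when its mean at 15 hours post fertilization (hpf) was 1000 CPM or more and its mean at 18 hpf was more than 0.5 and less than 2 times that. CPM is a model's count divided by the library total and multiplied by 1000000, and each mean was taken over the 4 libraries of a time, both guides together. Of 15232 models in the tables, 118 reached 1000 CPM at 15 hpf and 105 of these were members. All 105 passed the filter on low counts that left 11970 models for testing. The other 13 abundant models had ratios of 0.5 or less, and 0 had a ratio of 2 or more. A set of 14 models was left out by identifier, of which 0 would have passed. The members were selected on their level and on the ratio between the times, so both are given here as a description. Calls between the times are counted only in the closing section on processing, and nothing is read from them. Differences between the guides played no part in the selection.

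The cells were trunk ventral cells, sorted from embryos in which CRISPR/Cas9 was directed by a guide RNA (gRNA) to Tcf, or from embryos given a control gRNA. Each guide was sampled at 15 and at 18 hpf, with 2 libraries in each of the 4 groups. All groups share the mutagenesis procedure with a gRNA, and the labels name no other allele, promoter or agent. For each library 200 to 800 cells were sorted, and the labels do not tell whether libraries of 1 group stem from separate batches of embryos. For that reason p-values cover only how far these samples spread, which may be technical.

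In ascidian embryos trunk ventral cells give rise to both the heart and the pharyngeal muscles. Tcf is a DNA-binding protein that carries canonical Wnt signals to target genes together with beta-catenin. In animal cells in general, the most abundant messenger RNAs mostly encode proteins that every cell needs in bulk, such as ribosomal proteins, translation factors, cytoskeletal proteins and enzymes of energy metabolism. The files give model identifiers only, and 0 of the 15232 identifiers matched the 21486 genes of the reference table. The members therefore have no names or functions here, and neither the label of the cells nor the level of the targeted gene was checked against named genes. Levels are shares of reads and were not divided by transcript length, which the files do not give. The order of members is therefore an order of reads, not of molecules.

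Library totals ran from 6207795 to 9556959 counts, and a member had between 3985 and 708531 counts in a library. At such counts the median standard deviation (SD) expected from counting alone was 0.0135 on the log2 scale, so counting error was small beside the spread between libraries described further on. This covers counting error only, since no molecular identifiers are described. Over the members the control replicates of 18 hpf differed most from each other, and several results below are also given without replicate 1 or without replicate 2. Over the 11442 tested models with counts in every library, the control replicates of 15 hpf differed most.

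The member with the most reads by far was KH.S345.3. It had 92212 and 91246 CPM in control and 86935 and 84798 CPM in Tcf libraries at 15 hpf. At 18 hpf it had 52355 and 65029 CPM in control and 61058 and 58937 CPM in Tcf libraries. All 4 libraries of 18 hpf lay below all 4 of 15 hpf, and the mean ratio was 0.668. It had rank 1 in each of the 8 libraries. KH.C8.686 had rank 2 in each, with 17690 to 18767 CPM in the 4 libraries of 15 hpf and 23218 to 28665 CPM in those of 18 hpf. These ranges did not overlap either, and the ratio was 1.37. KH.C2.514, at rank 3 in each library, had 17543 and 14946 CPM in control and 16236 and 16551 CPM in Tcf libraries at 15 hpf. At 18 hpf it had 17460 and 16749 CPM in control and 18385 and 19430 CPM in Tcf libraries, so that the times overlapped in the control libraries (ratio 1.10). KH.C14.52 had rank 4 in each library, with 14611 ± 322 CPM at 15 hpf and 13139 ± 212 CPM at 18 hpf (SD, n = 4 each).

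The order below these 4 changed between libraries. KH.L37.67 ranked between 5 and 7 and KH.C3.30 likewise. KH.C3.30 kept a similar level, with 8311 ± 443 CPM at 15 hpf and 7536 ± 536 CPM at 18 hpf (SD, n = 4 each). KH.L37.67 had 11292 ± 484 and 6546 ± 1109 CPM. Among the 10 members with the most reads KH.C9.36 moved most in rank, between 6 and 19, with 8404 ± 1603 CPM at 15 hpf and 4372 ± 787 CPM at 18 hpf. Its 18 hpf level lay near the lower end of the window (ratio 0.520). KH.L154.4 had 5254 ± 322 and 6142 ± 429 CPM, KH.C1.244 had 6296 ± 366 and 4531 ± 895 CPM, and KH.L141.53 had 5497 ± 151 and 4825 ± 246 CPM. These 3 ranked between 6 and 13 in all libraries. Their standard deviations were larger at 18 than at 15 hpf, most of all for KH.C1.244, whose control libraries at 18 hpf had 5846 and 3907 CPM.

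**Figure D1:**
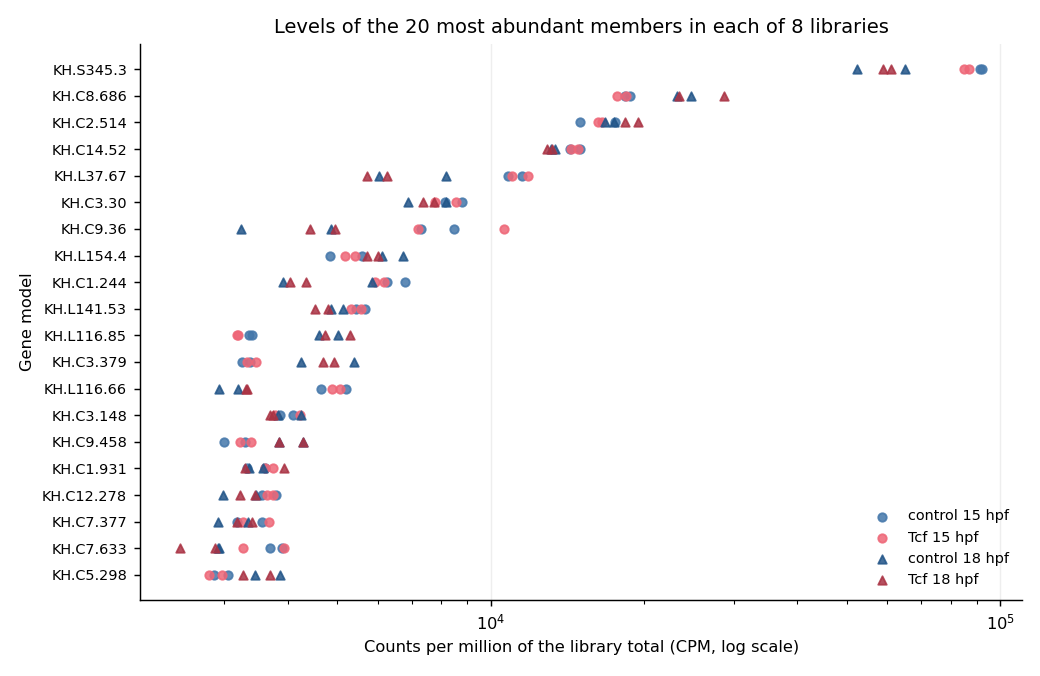
CPM of the library total (log axis) for the 20 members with the highest mean over all 8 libraries, with 1 point for each library, coloured by guide and shaped by time. KH.S345.3 stands alone between 52355 and 92212 CPM, and control and Tcf points of the same time lie close together for most models.

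Reads were concentrated on few members. Of the 105, 41 had a mean of 2000 CPM or more at 15 hpf, 10 had 5000 or more and 5 had 10000 or more, while the median member had 1595 CPM. Together the members took 36.2% ± 0.00617 of all counts in control and 35.5% ± 0.360 in Tcf libraries at 15 hpf (SD, n = 2 each). At 18 hpf they took 32.0% ± 0.0514 in control and 32.5% ± 0.172 in Tcf libraries. The 4 libraries of 15 hpf ranged from 35.2% to 36.2% and those of 18 hpf from 31.9% to 32.6%, so the times did not overlap. On library totals most of this gap lay in KH.S345.3 alone, which took 8.88% ± 0.352 of the counts at 15 hpf and 5.93% ± 0.530 at 18 hpf (SD, n = 4 each). Without it the members took 26.9% ± 0.141 at 15 hpf and 26.3% ± 0.616 at 18 hpf, with ranges that overlapped (26.7% to 27.0% and 25.4% to 26.8%). An alternative chosen after seeing the data divided by totals scaled by trimmed mean of M-values (TMM). On that scale the same members came to 27.9% to 28.6% at 15 hpf and 23.6% to 26.8% at 18 hpf. These values did not overlap, but they are not shares of all counts. The TMM factors themselves differed between the times, from 0.936 to 0.968 at 15 hpf and from 0.9997 to 1.09 at 18 hpf. The 95 members below the 10 most abundant took 17.5% ± 0.182 and 17.3% ± 0.232. By comparison, the 13 equally abundant models outside the window went from 2.70% ± 0.218 to 1.00% ± 0.103 of the counts. The shares of counts hold within a library, and in bulk samples fewer cells of a type and less RNA per cell cannot be told apart.

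**Figure D2:**
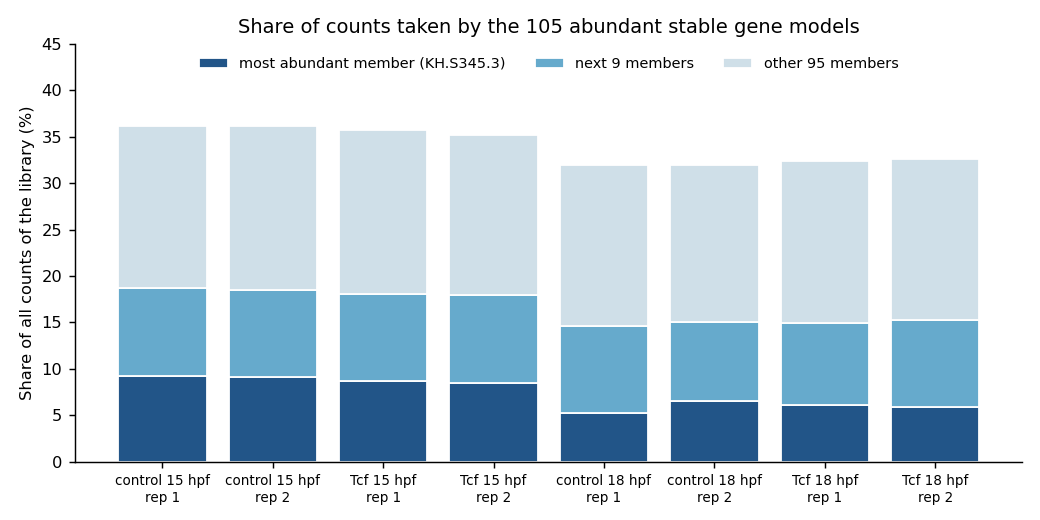
Share of all counts (%, vertical axis from 0) taken by the members in each of the 8 libraries, stacked as KH.S345.3, the next 9 members and the other 95 members. The stacks reach 35.2% to 36.2% at 15 hpf and 31.9% to 32.6% at 18 hpf, and the lowest segment, KH.S345.3, carries most of the difference.

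Within the window the members moved both ways. The ratio of 18 to 15 hpf was above 1 for 48 and below 1 for 57 members, with a median of 0.938. For 41 members it lay between 0.8 and 1.25, for 11 above 1.5 and for 12 below 0.6. The highest ratios belonged to KH.C11.21, which went from 1858 ± 136 to 3505 ± 71.9 CPM (ratio 1.89), and KH.C2.151, from 1215 ± 68.1 to 2161 ± 53.3 CPM (ratio 1.78; SD, n = 4 each). The lowest belonged to KH.C4.57, from 2074 ± 385 to 1039 ± 145 CPM (ratio 0.501), and KH.L17.2, from 2877 ± 141 to 1449 ± 150 CPM (ratio 0.504). Just outside the lower end stood KH.C11.89 (4703 to 2294 CPM, ratio 0.488) and KH.C9.28 (1747 to 808 CPM, ratio 0.463). No abundant model stood outside the upper end. At the abundance limit, KH.C1.333 (1002 CPM at 15 hpf) and KH.C7.448 (1012 CPM) were just inside and KH.C11.253 (994 CPM) and KH.L19.3 (987 CPM) just outside.

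The libraries of the times overlapped in some members and not in others. All 4 libraries of 18 hpf lay above all 4 of 15 hpf for 35 members and below them for 43, beside 18.7% and 8.59% of all tested models. The rule used this ratio, so nothing is read from these counts. The balance of directions also depended on the scaling. TMM put the median log2 fold change of all models, as the mean of both guides, at 0.04 and that of the members at -0.23, while library totals put them at 0.17 and -0.09.

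**Figure D3:**
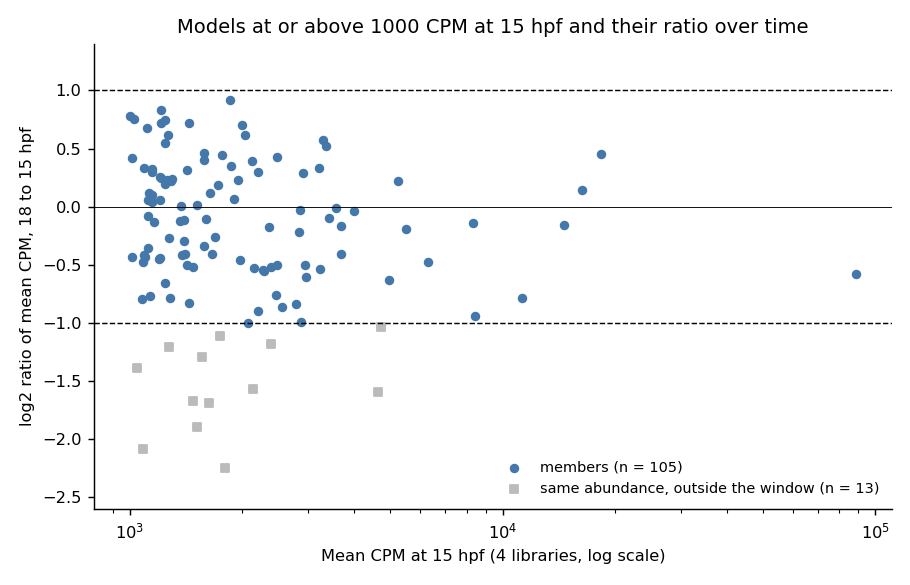
Mean CPM at 15 hpf (log axis) against the log2 ratio of mean CPM at 18 to 15 hpf for the 105 members (circles) and the 13 equally abundant models outside the window (squares), with dashed lines at the ends of the window. The members fill the window from 0.501 to 1.89 in ratio, and the models outside it all lie below.

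Taken in each guide by itself, 103 of the 105 members stayed inside the window in both. The exceptions were KH.L17.2, with a ratio of 0.514 in control and 0.493 in Tcf libraries, and KH.C4.57, with 0.545 and 0.460. The ratio lay on the same side of 1 in both guides for 100 members. Of the 5 that crossed 1, KH.C3.148, KH.L150.5, KH.L38.7 and KH.L93.6 had ratios between 0.928 and 1.10 in either guide. The other, KH.C11.533, had a ratio of 0.957 in control and 1.57 in Tcf libraries and is described with the interaction.

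The comparison of Tcf with control gRNA asked which members differ when this Wnt effector is targeted. At 15 hpf 0 of the 105 members passed the threshold, an adjusted p under 0.05 by edgeR's quasi-likelihood test, where the background was 0.00835% (1 of 11970 models, not a member). An unadjusted p under 0.05 was reached by 0 members with edgeR, 0 with DESeq2 and 1 with limma-voom, and by 5.05% of all tested models with edgeR. DESeq2 and limma-voom also called 0 members, beside 0.184% and 0.0251% of all models. Fitted log2 fold changes of the members ran from -0.22 to 0.19 with a median of 0.01, the same as the median of all models. All 105 members were within 1.25-fold, against 61.2% of all tested models. The median standard error (SE) of a log2 fold change was 0.11 for the members and 0.35 for all models. A p above the threshold does not show equal levels, but the 95% interval lay within 2-fold in either direction for 104 members and within 1.5-fold for 99. The widest reached 2.22-fold and belonged to KH.S345.8.

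Among the members of 15 hpf, KH.C14.191 and KH.L150.5 had the smallest p with lower values in Tcf libraries. KH.C14.191 had 1498 and 1434 CPM in control and 1314 and 1258 CPM in Tcf libraries (fitted log2 fold change -0.18, SE 0.10, 95% interval -0.39 to 0.03, adjusted p = 0.959, edgeR). KH.L150.5 had 2972 and 3155 CPM in control and 2771 and 2515 CPM in Tcf libraries (fitted log2 fold change -0.21, SE 0.12, adjusted p = 0.959). The groups did not overlap in either model. With higher values, KH.L108.12 had 1170 and 1299 CPM in control and 1416 and 1278 CPM in Tcf libraries, which overlapped (log2 fold change 0.13, SE 0.11, adjusted p = 0.968, and 0.05 to 0.21 without any 1 library). KH.C1.333 had 998 and 934 CPM in control and 1010 and 1065 CPM in Tcf libraries. These did not overlap on the scale of library totals but overlapped slightly on TMM-scaled totals. Its log2 fold change was 0.11 (SE 0.10, adjusted p = 0.974, edgeR), and 0.05 to 0.17 without any 1 library. The most abundant member, KH.S345.3, was lower in both Tcf libraries at 15 hpf, with a fitted fold of 0.939 (95% interval 0.824 to 1.07). Counted over the members on TMM-scaled CPM, as in all such counts for the guides, the Tcf libraries lay fully above the control libraries for 11 (10.5%) and fully below for 20 (19.0%), beside 17.3% and 15.2% of all tested models.

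At 18 hpf 0 of the 105 members passed with edgeR, beside a background of 0.00835% (again 1 model, not a member). Unadjusted p-values under 0.05 numbered 3 with edgeR, 4 with DESeq2 and 5 with limma-voom. The latter pair called 0 members, beside 0.199% of the 8025 models given an adjusted p by DESeq2 and 0.00835% of all models. In all, 3.83% of all tested models reached an unadjusted p under 0.05 with edgeR. The log2 fold changes ran from -0.40 to 0.53, with a median of -0.01 (0.01 over all models), and 103 members were within 1.25-fold, against 65.6% of all models. The 95% interval lay within 2-fold for 104 members. With all libraries 46 members had a log2 fold change above 0. Without control replicate 1 of 18 hpf this number was 75, and without control replicate 2 it was 24. Without Tcf replicate 1 of 18 hpf this number was 63, and without Tcf replicate 2 it was 31. With all libraries it was 57 on library totals and 44 with DESeq2 size factors. The balance of directions thus depended on single libraries and on the scaling. Tcf libraries lay fully above control libraries for 10 members (9.52%) and fully below for 7 (6.67%), beside 16.7% and 15.6% of all tested models. The number of calls depended on control replicate 2, without which 3 members were called at 18 hpf, all lower in Tcf libraries, beside 0.0471% of all models (6, all lower). They were KH.L170.78 (log2 fold change -0.79), KH.C1.244 (-0.60) and KH.L37.67 (-0.57), each with adjusted p = 0.0465, and are named for that fit after their values were seen. That fit sets 1 control library against 2 Tcf libraries and assumes that it varies as the other groups do. With all libraries their log2 fold changes were -0.40, -0.26 and -0.29 (adjusted p = 1 for each).

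The member with the smallest p at 18 hpf was KH.C11.533. It had 1298 and 1553 CPM in control and 2605 and 1617 CPM in Tcf libraries, so the groups did not overlap, while Tcf replicate 1 stood well above the other library of its group. Its log2 fold change was 0.53 (SE 0.16, 95% interval 0.19 to 0.88, adjusted p = 1, edgeR), and it was 0.20 without Tcf replicate 1 and 0.79 without Tcf replicate 2. KH.C14.88 had closer replicates, with 1262 and 1341 CPM in control and 1576 and 1591 CPM in Tcf libraries (fitted log2 fold change 0.26, SE 0.10, adjusted p = 1). With lower values, KH.C5.16 had 2294 and 2606 CPM in control and 2164 and 2063 CPM in Tcf libraries (fitted log2 fold change -0.24, SE 0.10, adjusted p = 1). KH.S655.2 had 2561 and 2232 CPM in control and 2126 and 2020 CPM in Tcf libraries (fitted log2 fold change -0.24, SE 0.11, adjusted p = 1). Its log2 fold change was -0.09 without control replicate 1 and -0.43 without control replicate 2 of 18 hpf. In each of these 4 models the groups did not overlap.

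**Figure D4:**
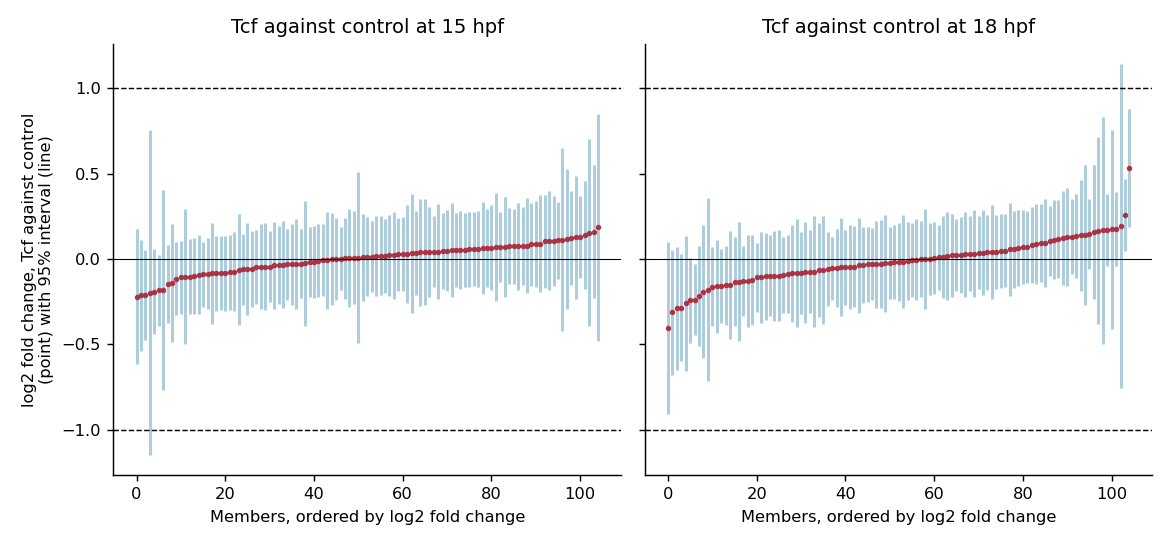
Fitted log2 fold change of Tcf against control (points) with its 95% interval (lines) for the 105 members, ordered by value at 15 hpf (left) and at 18 hpf (right), with dashed lines at a 2-fold difference. Points lie between -0.22 and 0.19 at 15 hpf and between -0.40 and 0.53 at 18 hpf, and all but 1 interval at each time stay within the dashed lines.

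As the mean of both times, 0 members passed with edgeR, where the background was 0.0167%. An unadjusted p under 0.05 was reached by 1 member with edgeR, 1 with DESeq2 and 2 with limma-voom. The latter pair called 0 members, beside 0.168% of the 8953 models given an adjusted p by DESeq2 and 0.00835% of all models. The log2 fold changes ran from -0.22 to 0.20, and all 95% intervals lay within 2-fold and 103 within 1.5-fold. Values above 0 belonged to 51 members, to 72 without control replicate 1 of 18 hpf and to 22 without control replicate 2. KH.S655.2 was the member with the smallest p. At 15 hpf it had 3612 and 3298 CPM in control and 2932 and 3092 CPM in Tcf libraries, and with its values at 18 hpf it was below control in every Tcf library of the same time. Its log2 fold change was -0.22 (SE 0.08, 95% interval -0.39 to -0.04, adjusted p = 1), and -0.14 without control replicate 1 of 18 hpf. It was the only member whose Tcf libraries lay fully below control at both times, 0.952% of the members beside 2.18% of all tested models. KH.C2.198 was the only one fully above at both times, beside 2.7% of all models. It had 1191 and 1229 CPM in control and 1288 and 1247 CPM in Tcf libraries at 15 hpf (log2 fold change of the mean of both times 0.09, SE 0.07, adjusted p = 1). At 18 hpf it had 1607 and 1846 CPM in control and 1927 and 1848 CPM in Tcf libraries. On the scale of library totals the latter control and Tcf values lie next to each other.

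The interaction term compares the guide difference of a member at 18 hpf with that at 15 hpf. It called 0 members with edgeR, DESeq2 and limma-voom. The background was 0%, 0.235% and 0%, for DESeq2 over the 8953 models that it gave an adjusted p. In the same order of tools, 3, 3 and 4 members had an unadjusted p under 0.05. With edgeR the median SE of the term was 0.16 for the members. Its 95% interval lay within 2-fold for 100 members and within 1.5-fold for 83, and the widest reached 3.33-fold (KH.S345.8). The term was above 0 for 43 members, for 66 without control replicate 1 of 18 hpf and for 25 without control replicate 2. KH.C11.533 again had the smallest p (0.67 on the log2 scale, SE 0.22, 95% interval 0.18 to 1.16, adjusted p = 0.959). That value was 0.34 without Tcf replicate 1 of 18 hpf and 0.93 without Tcf replicate 2. At 15 hpf it had 1483 and 1496 CPM in control and 1360 and 1335 CPM in Tcf libraries, an order opposite to that at 18 hpf. KH.C14.191 followed (0.36, SE 0.14, adjusted p = 0.989), lower in both Tcf libraries at 15 hpf and with 962 and 961 CPM in control and 1145 and 1064 CPM in Tcf libraries at 18 hpf. Negative values were led by KH.C5.16 (-0.28, SE 0.14) and KH.C11.243 (-0.42, SE 0.23), each with adjusted p = 0.989. The value of KH.C11.243 was -0.12 without control replicate 1 of 18 hpf and -0.70 without control replicate 2. In all, 5 members (4.76%) had groups that did not overlap at either time and changed order between the times, beside 5.43% of all tested models. In each of the 5 the Tcf libraries were lower at 15 hpf and higher at 18 hpf. The share of all tested models takes both directions together, so nothing is read from the shared direction. They were KH.C8.441, KH.C11.533, KH.C14.191, KH.C1.329 and KH.C14.88, named after their values were seen. Such an order of single libraries was not a call in any of them.

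The replicates of a group lay close together for most members. Over the 4 groups the SD of TMM-scaled log2 CPM within groups had a median of 0.111 over the members, against 0.296 over the 11442 tested models with counts in every library. Among models inside the same time window the median was 0.116 between 300 and 1000 CPM, 0.133 between 100 and 300 CPM and 0.220 between 10 and 100 CPM. The 13 equally abundant models outside the window had a median of 0.207. The members' SD was a median of 9.35 times that of counting alone, and no member came below 2.22 times. The closest replicates belonged to KH.C2.198 (SD 0.0363) and KH.S545.7 (SD 0.0374). KH.S545.7 had 1135, 1089, 1107 and 1130 CPM in the libraries of 15 hpf and 832, 893, 895 and 864 CPM in those of 18 hpf. The largest SD belonged to KH.S345.8 (0.430) and KH.C9.36 (0.338).

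In 68 of the 105 members the replicates of every group lay within 1.25-fold of each other, and in 10 those of some group differed by 1.5-fold or more. These 10 were taken after their values were seen. They fell on 3 of the 4 groups. The largest difference of a member was in control at 18 hpf for 6, in Tcf at 15 hpf for 2 and in Tcf at 18 hpf for 2. The largest in control at 15 hpf was 1.42-fold (KH.C11.291). The median fold between replicates over the members was 1.06 in both groups of 15 hpf, 1.14 in control at 18 hpf and 1.09 in Tcf at 18 hpf. Over the 11442 tested models with counts in every library it was 1.26 in control and 1.21 in Tcf at 15 hpf. At 18 hpf it was 1.23 and 1.20. Of these models 32.2% in control and 25.8% in Tcf differed by more than 1.5-fold at 15 hpf, and 25.3% and 23.8% at 18 hpf.

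Several of these members differed together in some groups and not in others. In Tcf libraries at 15 hpf, for example, the replicates differed by 1.45-fold for KH.S345.8 and by 1.02-fold for KH.S1653.2. At 18 hpf the control replicates of both differed the same way. KH.S345.8 had 1101 CPM in control replicate 1 at 18 hpf and 2529 CPM in replicate 2, and KH.S1653.2 had 961 and 1965 CPM. KH.S345.3 had its lowest value of all 8 libraries in the same replicate 1. KH.S345.8 shares the first part of its identifier with KH.S345.3, and whether their reads could be shared was not given in the sources used here. The opposite was seen in KH.L170.78, with 2140 CPM in that replicate 1 and 1228 to 1368 CPM in the other 7 libraries, and in KH.C1.244.

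Another set was high in Tcf replicate 2 at 15 hpf. KH.C9.36 had 10643 CPM there and 7185 to 8478 CPM in the other 3 libraries of that time. KH.C9.208 had 3445 CPM against 2415 to 2723, KH.C4.57 had 2604 CPM against 1690 to 2049, and KH.C1.242 had 1364 CPM against 883 to 1068. Control replicate 1 at 18 hpf was above replicate 2 in all 4 of these models, but that order was common among the members. With TMM scaling 82 members were higher in replicate 1 and 23 in replicate 2, and with library totals 62 and 43. For KH.C1.242 the values were close, at 751 and 710 CPM. Nothing is therefore read from the shared order. A further set, KH.C11.533 and KH.C11.459, was high in Tcf replicate 1 at 18 hpf, with 2605 and 1828 CPM against 1617 and 1098 CPM in replicate 2. KH.C11.533 is the member with the smallest p at 18 hpf and in the interaction. The part of differences between single libraries in those values was not tested beyond leaving the libraries out.

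**Figure D5:**
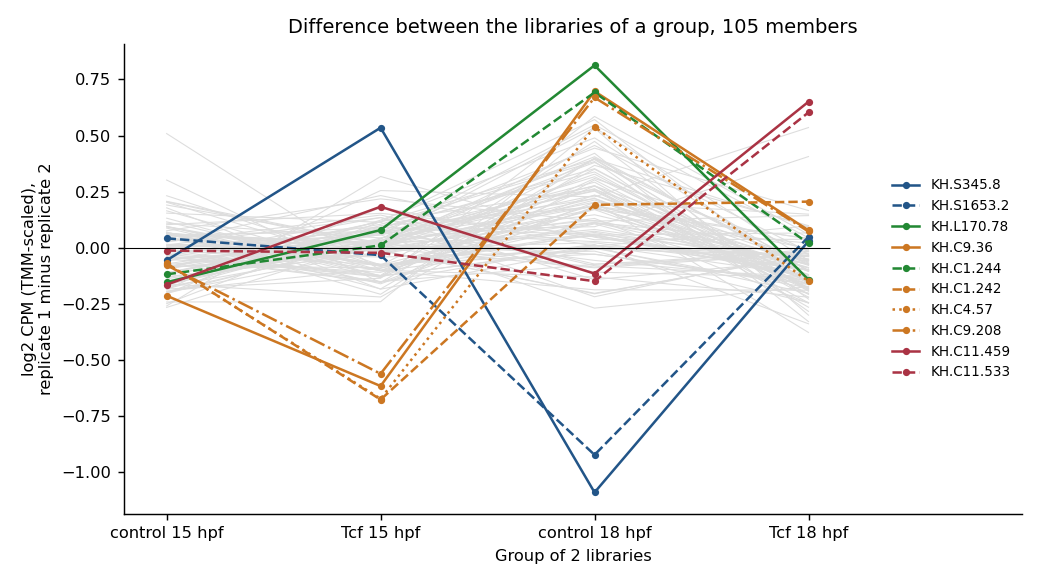
Difference of TMM-scaled log2 CPM between replicate 1 and replicate 2 of each of the 4 groups (horizontal axis) for the 105 members, with the 10 members that differed by 1.5-fold or more in some group in colour and the others in grey. KH.S345.8 and KH.S1653.2 fall furthest in control at 18 hpf, and KH.C11.533 and KH.C11.459 stand out in Tcf at 18 hpf.

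The libraries of 18 hpf also differed over the members as a whole. With TMM scaling 82 members were higher in control replicate 1 than in replicate 2 at 18 hpf, and 82 were higher in Tcf replicate 2 than in replicate 1. With library totals alone these numbers were 62 of 105 in control and 55 of 105 in Tcf libraries, so the imbalance depended on the scaling. The median log2 difference between the control replicates at 18 hpf was 0.18 with TMM and 0.07 with library totals.

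The identifiers give 1 further feature that the rule did not use. Models numbered with C made up 70.5% of the members (74), those with L 21.9% (23) and those with S 7.62% (8). Over the 11970 tested models these shares were 70.2%, 19.8% and 9.98%. The members thus came from the 3 series of identifiers in shares close to those of the tested models, given as a description without a test.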

How the data were processed

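Per the labels' protocols, 250 to 2000 pg of total RNA from sorted cells went into SMART-Seq v4 and Ovation Ultralow libraries. The deposited values are raw read counts per KH2013 gene model, made by the authors with TopHat2 2.0.12 and featureCounts, per the submitters' processing notes. Genome build, strand setting and multiple mapping were not given in the sources used here. Titles and file headers number the control libraries of 15 hpf in opposite order, and the titles were followed.

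CPM used library totals. All 8 libraries entered 1 edgeR 4.0.16 fit of 4 group means (R 4.3.3, limma 3.58.1) with filterByExpr (minimum count 10), TMM factors and robust quasi-likelihood tests, adjusted by Benjamini-Hochberg over 11970 models. The SE came from the fold change and its F statistic, and 95% intervals are unadjusted. A permutation of 2 against 2 libraries gives no p under 0.333 (exact). Alternatives were DESeq2 1.42.0, limma-voom, other scalings and filters, replicate blocks and leaving out libraries. The tools were also run on simulated data with larger changes. That run does not tell whether differences as small as most of those in the members would be found.

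Members, lists and tests were chosen with earlier results of these data known. Named members are the 10 with the most reads, those at the edges of the rule, those with the smallest p each way in each guide comparison, and those of largest and smallest spread. The 8 gene lists need names and could not be applied.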

Additional observations from a re-analysis of the deposited data

How the results depend on the processing

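Members numbered 105, 101 of them among the 110 found with TMM-scaled totals, and 102 to 105 without any 1 library. A limit of 500 CPM gave 283 and one of 2000 CPM gave 41. Divided by TMM-scaled totals, the members' counts came to 37.8% and 37.3% in control and Tcf libraries at 15 hpf. At 18 hpf they came to 30.8% and 30.7%. These values are not shares of all counts. The count of members called for Tcf against control was 0 at 15 hpf, for the mean of both times and for the interaction under every alternative, and at 18 hpf under every alternative except the fit without control replicate 2 at 18 hpf, so that the fits leaving out 1 library gave 0 to 3 members, beside 0 to 6 of all models at that time. Calls for 18 against 15 hpf, which the selection used and from which nothing is read, numbered 50 members in control, 56 in Tcf libraries and 71 for the mean of both guides, beside 13%, 11.1% and 22.9% of all tested models. Without any 1 library they numbered 30 to 57, 34 to 68 and 61 to 75, beside 931 to 1535, 687 to 1474 and 1997 to 2670 of all models in those fits. The 16 fold changes of named members kept their sign and stayed uncalled under all alternatives run. They were picked for the smallest p each way in these same data, so nothing is read from the kept sign. Their size did move. For the mean of both times the log2 fold change of KH.C11.533 was 0.20, and 0.03 without Tcf replicate 1 of 18 hpf.

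Whether equal replicate numbers mark paired libraries was not settled. The correlation across models of the differences between replicates was 0.06 between the guides at 15 hpf and -0.14 at 18 hpf. Such low correlations cannot show that libraries of equal number were prepared apart. With a replicate block on the numbers of the titles, 0 members were called in the guide comparisons and the interaction, and 43, 51 and 67 for 18 against 15 hpf in control, in Tcf and as the mean, beside 1385, 1153 and 2503 of the 11970 models. With the numbers of the file headers these were 46, 52 and 69 (1407, 1201 and 2547 of all models), and with the numbers of control at 18 hpf crossed, chosen after seeing the data, 54, 61 and 73 (1676, 1438 and 2820). Over the members the median SD on the log2 scale was 0.0135 from counting alone and 0.111 within groups.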
